A study of Rattus norvegicus with 6 samples.

Results

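Genes that break down heme and handle the iron it releases were followed in single cells of the rat cerebral hemisphere. The set was chosen by name: *Hmox1*, *Hmox2*, *Blvra*, *Blvrb*, *Fth1*, *Ftl1*, *Slc40a1* and *Tfrc*. Of these 8 genes, 7 were found by symbol among the 15227 genes of the count tables and were analysed. *Slc40a1* (ferroportin) was not analysed here. The control rats (NC) were labelled as negative or normal controls, and the poisoned rats (CO) breathed carbon monoxide at 1000 ppm for 40 minutes and then at 3000 ppm for 20 minutes. Poisoning was counted as severe when consciousness was impaired and more than 60% of hemoglobin carried CO. The labels name no strain, sex or age, and no source used here gives the interval between exposure and tissue collection. Tissue of both groups was digested with warm trypsin and DNase I before the cells were loaded. The series describes 3 rats and 3 libraries per group.

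Heme oxygenases open the heme ring and release biliverdin, ferrous iron and carbon monoxide, the gas the CO rats inhaled. Biliverdin reductases turn biliverdin into bilirubin, ferritin stores the iron, and the transferrin receptor brings iron into cells. In the brain, microglia and perivascular macrophages clear heme, endothelial cells take up iron from blood, and oligodendrocytes are rich in ferritin and transferrin.

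Of 42293 barcodes, 38027 were kept, and the 6 libraries held 39494470 to 47322264 unique molecular identifiers (UMIs, 1 per captured transcript). The median cell held 4840 UMIs in NC and 5661 in CO. Averaged over genes, the variance between the libraries of a group, relative to that expected from single cells drawn from 1 pool, was 1.01 in NC and 1.11 in CO, where 1 is the value for parts of 1 pool. Each group was therefore counted as 1 sample. Single genes departed from this mean, such as *Hmox1* at 3.14 in NC and 0.251 in CO. No p-value is given, and intervals are exact 95% binomial intervals that cover counting error only and not the difference between rats. A cell was assigned to a class from its marker genes, none of which belongs to the heme and iron set. The 8 classes compared had 5648 NC and 6159 CO microglia-like cells, 475 and 371 macrophage-like, 2931 and 2109 endothelial-like, 440 and 429 mural-like, 316 and 303 choroid plexus-like, 532 and 737 astrocyte-like, 3656 and 1404 oligodendrocyte-like, and 453 and 1324 neuronal-like cells. The leading genes of each class held markers of its own list and none of another's: *Tmem119*, *Gpr34*, *Cx3cr1* and *P2ry12* in microglia-like cells, *Mrc1*, *Clec10a*, *F13a1* and *Pf4* in macrophage-like cells, *Cldn5*, *Flt1* and *Slco1a4* in endothelial-like cells. Neuronal-like cells were led by *Nrxn3*, *Stmn2*, *Dlx1* and *Dcx*, genes of young neurons. Because cells were assigned by their markers, the place of markers among the leading genes follows in part from the assignment. Levels are given as CPM, the share of a class's UMIs that a gene holds, scaled up alike for all genes and adjusted between libraries by TMM.

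*Hmox1*, the inducible heme oxygenase, was by far highest in the phagocytes among the classes compared. It was lower in microglia-like cells of CO. In NC microglia-like cells it stood at 2222, 2460 and 2617 CPM in libraries 1 to 3. In CO it stood at 1450, 1561 and 1482 CPM. The lowest NC library lay above the highest CO library. The variance between libraries was 2.94 times that expected for parts of 1 pool in NC and 0.467 times in CO. The interval below covers counting error only. Summed per group, CO was 1.63-fold lower, a log2 ratio of -0.71 (interval -0.72 to -0.69) on 78013 NC and 59624 CO UMIs. *Hmox1* was the 1 gene of the set that reached a 1.5-fold difference in microglia-like cells, a size that 9.47% of the 11570 genes compared there reached downward. In all 18 other ways of processing that were tried, the log2 ratio lay between -0.76 and -0.65.

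Fewer CO microglia-like cells carried *Hmox1*, and those that did carried less. To compare cells of unequal depth, each was thinned to 2000 UMIs, which left out 210 NC and 131 CO cells below that depth. At least 1 *Hmox1* UMI was then found in 66.0% of NC cells (interval 64.8 to 67.3%) and in 54.8% of CO cells (53.5 to 56.1%). Without thinning, the shares were 76.2% and 70.9%. At least 3 UMIs were found in 44.4% of NC and 31.6% of CO cells, and the mean per cell was 4.94 against 2.92 UMIs. The median NC cell had 2 *Hmox1* UMIs and the median CO cell had 1. The upper tail was shorter too: the 90th percentile was 14 UMIs in NC and 9 in CO. In both groups the gene was unevenly spread over cells. The 10% of cells with most *Hmox1* held 45.7% of its UMIs in NC and 51.8% in CO, against 27.6% and 28.1% for *Fth1* in the same cells. For comparison, oligodendrocyte-like cells thinned alike had an *Hmox1* UMI in 6.28% of NC and 3.61% of CO cells, at median depths before thinning of 9570 and 10263 UMIs, against 5446 and 6300 in microglia-like cells.

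**Figure D1:**
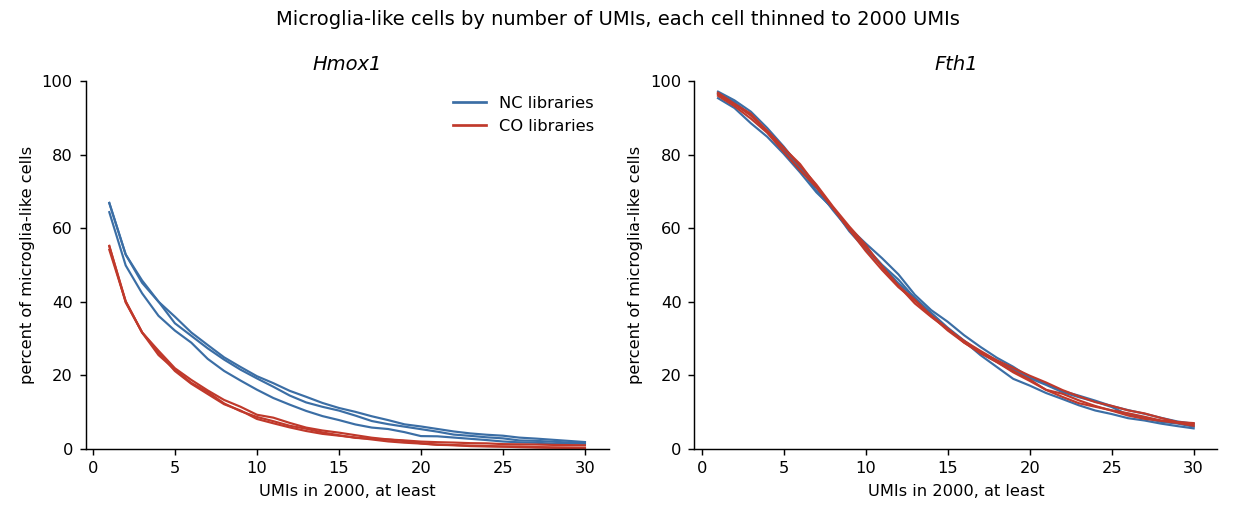
Percent of microglia-like cells (vertical axis) with at least a given number of UMIs (horizontal axis) of Hmox1 (left) or Fth1 (right) after each cell was thinned to 2000 UMIs, with 1 line per library. For Hmox1 the 3 CO lines lie below the 3 NC lines from 1 UMI on, at 54.8% against 66.0% of cells over the groups; for Fth1 the 6 lines run together.

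Markers of microglia and of other cells also differed in microglia-like cells, and their values stand beside the *Hmox1* result. The summed microglia markers were at 3038 to 3115 unscaled CPM in NC and 2451 to 2500 in CO, and of the 7 with enough counts 6 were lower in CO and 1 (*Tmem119*) higher. The summed macrophage markers were at 99.1 to 106 in NC and 80.5 to 84.7 in CO, but single markers went both ways. *Lyve1* was at 83.9 CPM in NC and 43.3 in CO, while *Pf4* was at 9.16 and 24.4 and *Folr2* at 4.03 and 11.5. The summed oligodendrocyte markers were at 599 to 610 in NC and 1017 to 1031 in CO, and the only one of the 8 that was higher was *Aspa*, at 539 and 1024 CPM. The other 7 oligodendrocyte markers were lower in CO, such as *Mog* at 10.9 and 4.09 CPM and *Mal* at 15.1 and 6.67 CPM. In the microglia-like cells that held no UMI of any macrophage marker (4089 NC and 4457 CO cells), a comparison added after the data were seen, the *Hmox1* ratio was -0.66. The part of the other markers in the result was not tested.

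In macrophage-like cells, the cells at the borders of the brain that carry the hemoglobin scavenger *Cd163*, *Hmox1* stood at 1716, 1894 and 1960 CPM in NC and at 1547, 1758 and 1363 CPM in CO. The libraries overlapped, and the log2 ratio was -0.26 (interval -0.32 to -0.19). *Cd163* itself was at 746 CPM in NC and 756 in CO. In NC, *Hmox1* was higher in microglia-like than in macrophage-like cells in every library. In CO, the macrophage-like level of 1556 CPM and the microglia-like level of 1496 CPM could not be ordered, because their libraries overlapped.

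In the other classes compared *Hmox1* was far lower. In oligodendrocyte-like cells it stood at 95.7, 88.4 and 83.5 CPM in NC and at 40.8, 24.9 and 34.8 CPM in CO, without overlap (log2 ratio -1.40, interval -1.54 to -1.27). With Leiden clusters in place of the marker gate the ratio was -0.90. Neuronal-like cells went the other way, with 27.2, 32.7 and 11.6 CPM in NC and 50.1, 56.2 and 61.1 CPM in CO (log2 ratio 1.29, interval 0.90 to 1.69, on 62 and 503 UMIs). That ratio was 0.35 with Leiden clusters.

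Levels of this size can hold RNA of microglia that reached other droplets, so *Hmox1* was set against the 8 microglia markers of the same cells. In microglia-like cells there were 80.8 *Hmox1* UMIs per 100 marker UMIs in NC and 59.1 in CO, and barcodes below the cell minimum had 92.5 and 64.8. Oligodendrocyte-like cells had 67.9 and 39.2 and neuronal-like cells 18.5 and 33.0, but in both classes most of the marker UMIs were *Sall1* (70.5% and 67.7% in oligodendrocyte-like cells, 88.4% and 66.2% in neuronal-like cells, against 19.0% and 18.3% in microglia-like cells). Without *Sall1*, a comparison added after the data were seen, oligodendrocyte-like cells had 230 and 121 *Hmox1* UMIs per 100 marker UMIs, above the 99.8 and 72.4 of microglia-like cells in every library. Neuronal-like cells had 159 and 97.5, on 39 and 516 marker UMIs, and NC library 3 lay below the microglia-like value. Phagocyte markers also differed in these classes. In neuronal-like cells the summed microglia markers were at 102.5 to 140.9 unscaled CPM in NC and 152.9 to 192.3 in CO. The summed macrophage markers there were at 0.98 to 3.89 and 6.75 to 21.9. In oligodendrocyte-like cells the microglia markers were at 128.9 to 135.2 in NC and 82.1 to 88.4 in CO. The macrophage markers there overlapped between the groups. How much of the *Hmox1* of either class is RNA from other cells was not tested.

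**Figure D2:**
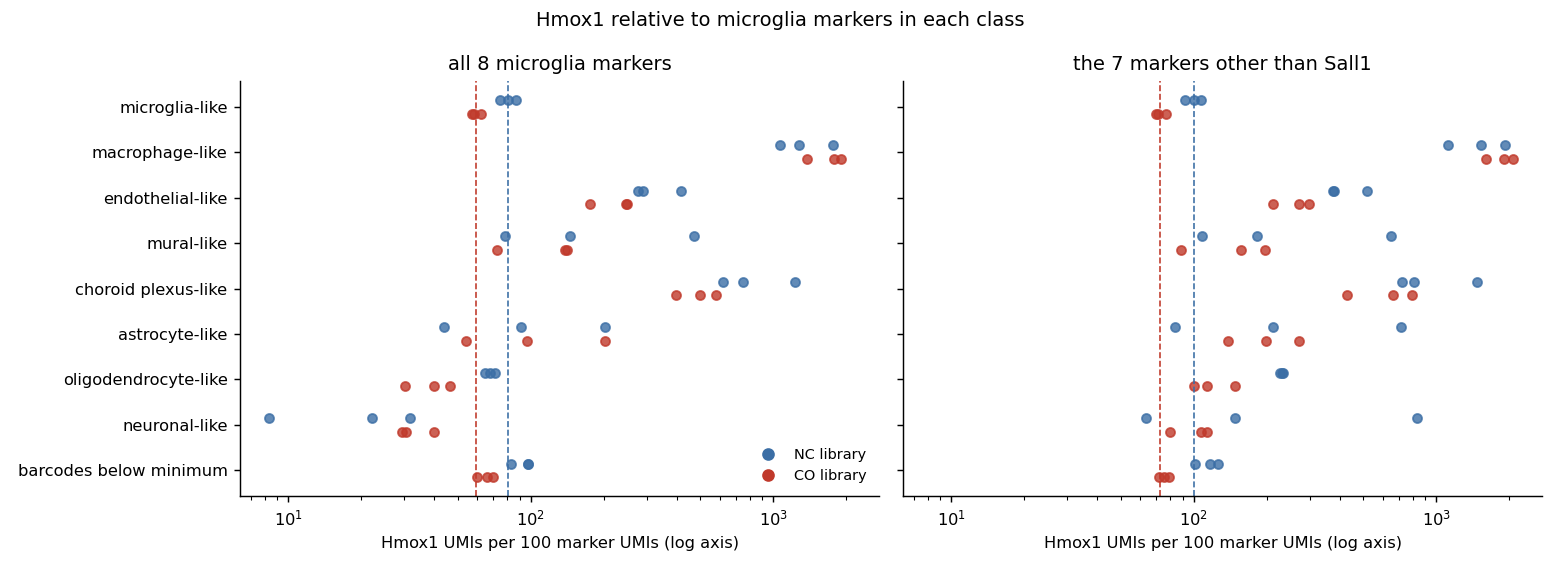
Hmox1 UMIs per 100 UMIs of the microglia markers (horizontal log axis) in each class and in barcodes below the cell minimum, with 1 point per library, for all 8 markers (left) and without Sall1 (right); dashed lines mark the microglia-like value of each group (80.8 in NC and 59.1 in CO on the left, 99.8 and 72.4 on the right). Macrophage-like, choroid plexus-like and endothelial-like cells lie to the right of the lines in both panels, and oligodendrocyte-like cells to the left with Sall1 and to the right without it.

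Endothelial-like cells carried more *Hmox1* per microglia marker UMI than microglia-like cells, at 314 per 100 marker UMIs in NC and 220 in CO (413 and 257 without *Sall1*). Their levels were 181, 183 and 197 CPM in NC and 131, 119 and 118 CPM in CO. No library overlapped, and CO was 1.52-fold lower (log2 ratio -0.61, interval -0.70 to -0.52). Among all genes of endothelial-like cells, 14% reached 1.5-fold lower. In the cells with no macrophage marker UMI, again chosen after the data were seen, the ratio was -1.11. It was -0.57 without NC library 3 and -0.58 without CO library 3, just inside 1.5-fold. Choroid plexus-like cells had 818 and 500 per 100 marker UMIs, and their *Hmox1* libraries overlapped, at 94.3 to 116 CPM in NC and 57.7 to 125 CPM in CO. In astrocyte-like cells 1 library of each group stood high, NC 1 at 145 CPM against 51.2 and 67.1, and CO 1 at 243 CPM against 69.0 and 70.5. The sign of that ratio (0.40) turned to -0.37 without CO library 1. Over the 16 combinations of class and group, the genes whose profile was most like that of *Hmox1*, among 8172 genes searched, were *Epsti1*, *Wdfy4* and *Ctsz*, each with Pearson r = 0.97 on log2(CPM + 1). The points share libraries, and each of these genes was highest in microglia-like cells. What sets the likeness was not tested.

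*Hmox2*, the constitutive heme oxygenase, had another pattern across classes. It was highest in oligodendrocyte-like cells, at 190, 204 and 202 CPM in NC and 176, 180 and 175 CPM in CO. Every NC library was above every CO library, but the log2 ratio was only -0.17 (interval -0.23 to -0.10). In microglia-like cells it was at 51.2, 49.1 and 50.6 CPM in NC and 44.6, 40.9 and 38.9 CPM in CO (log2 ratio -0.28, interval -0.38 to -0.18), also without overlap. In the other 6 classes the libraries overlapped, and no class reached 1.5-fold. Macrophage-like and endothelial-like cells followed oligodendrocyte-like cells at 102 and 88.0 CPM in NC, and these neighbours did not differ beyond the spread of their libraries.

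**Figure D3:**
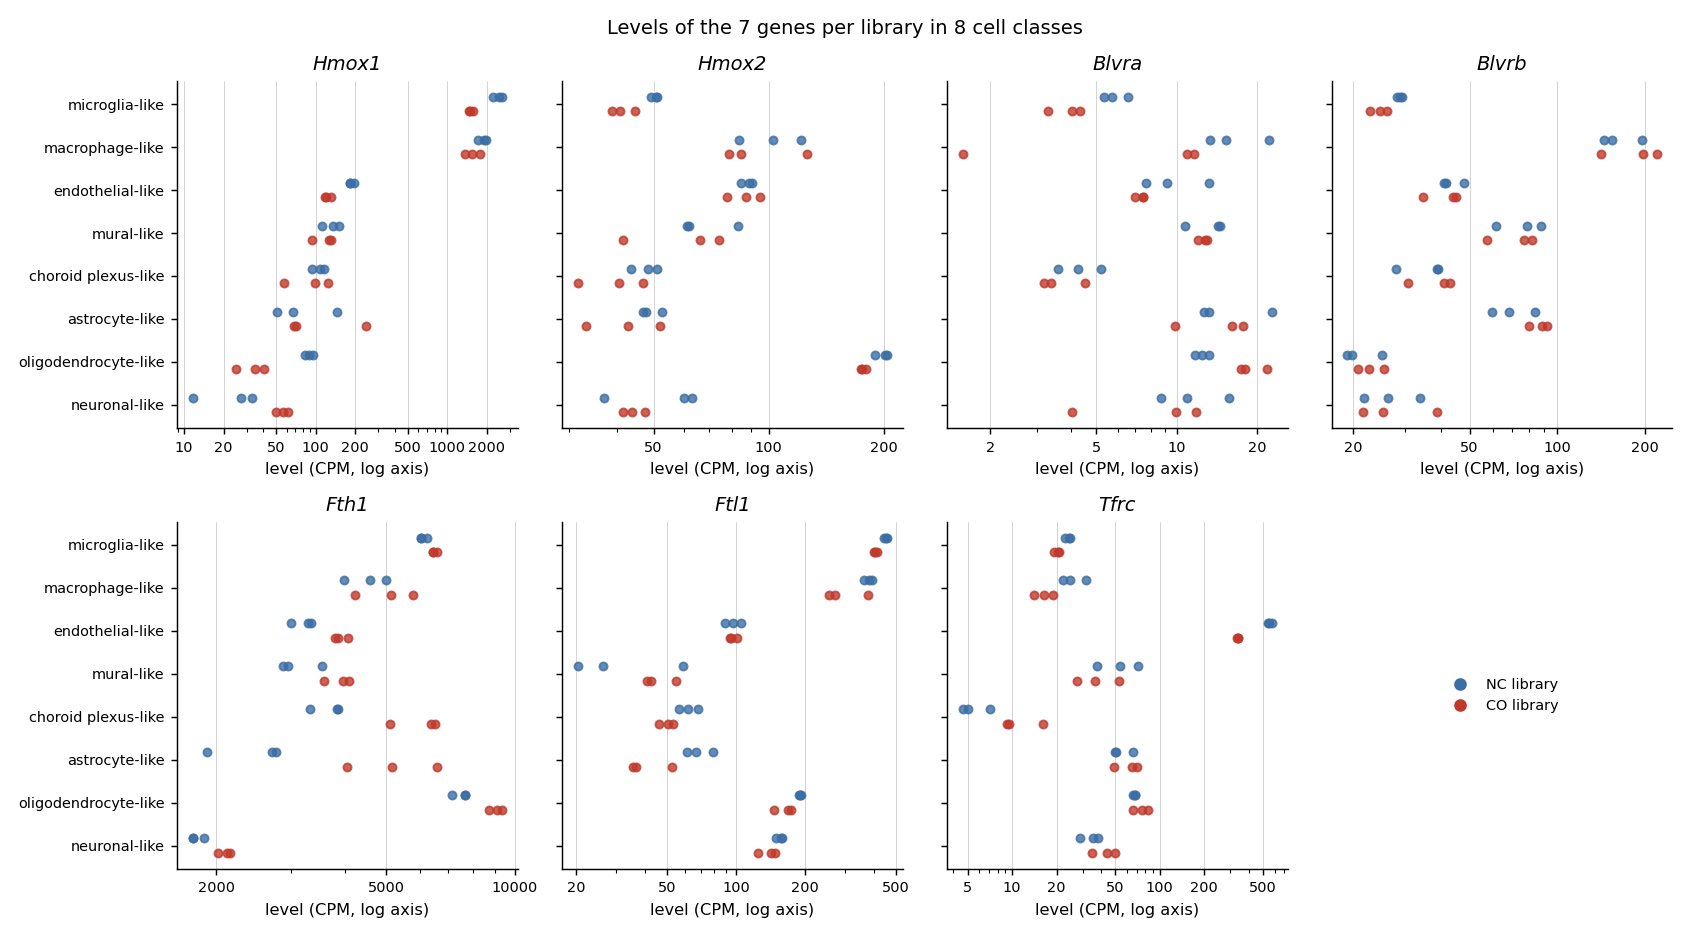
Level in CPM (horizontal log axis) of each of the 7 genes in 8 cell classes, with 1 point per library (3 NC, 3 CO). Hmox1 is highest in microglia-like and macrophage-like cells, Hmox2 and Fth1 in oligodendrocyte-like cells, Blvrb in macrophage-like cells and Tfrc in endothelial-like cells.

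The biliverdin reductases were expressed at low levels. *Blvrb*, which also reduces flavins, was highest in macrophage-like cells, at 154, 144 and 195 CPM in NC and 141, 197 and 219 CPM in CO. Its libraries overlapped in 7 classes. In microglia-like cells they did not, at 28.3, 29.4 and 28.8 CPM in NC and 22.8, 26.1 and 24.6 CPM in CO (log2 ratio -0.24, interval -0.37 to -0.11). *Blvra*, the main biliverdin reductase of adult tissue, lay between 3.63 and 19.2 CPM in the class sums. In microglia-like cells 187 NC and 156 CO UMIs gave 5.72, 6.54 and 5.32 CPM in NC and 4.05, 3.29 and 4.34 CPM in CO, a log2 ratio of -0.58 (interval -0.89 to -0.26), just inside 1.5-fold. In oligodendrocyte-like cells *Blvra* was higher in CO, at 11.7, 12.4 and 13.2 CPM in NC and 21.8, 18.0 and 17.4 CPM in CO (1.54-fold, log2 ratio 0.63, interval 0.41 to 0.84). That size was reached upward by 8.05% of genes in the class. The ratio was 0.18 with cells thinned to 2000 UMIs, and 0.58 without NC library 1 and 0.51 without CO library 1. In macrophage-like cells 36 NC and 15 CO UMIs gave a log2 ratio of -1.08 with a wide interval, -2.06 to -0.18. Without CO library 2, which was the lowest at 1.57 CPM, it was -0.59. Of all genes in macrophage-like cells, 17.1% were 1.5-fold or more lower.

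Ferritin heavy chain RNA, *Fth1*, which encodes the subunit that oxidises iron for storage, was higher in CO in all 8 classes, and the libraries did not overlap in 7 of them. In those 7 classes 13.1% (mural-like) to 23.9% (endothelial-like) of all genes had all CO libraries above all NC libraries. Nearly all cells carried *Fth1*. The difference was largest in astrocyte-like cells, at 2759, 1904 and 2707 CPM in NC and 6593, 5148 and 4040 CPM in CO. All 3 CO libraries lay above all 3 NC libraries, and the sum was 2.08-fold higher (log2 ratio 1.06, interval 1.01 to 1.10). In astrocyte-like cells 14.1% of genes were 1.5-fold or more higher in CO, and for 13.9% all CO libraries were above all NC libraries. Choroid plexus-like cells followed, at 3843, 3322 and 3850 CPM in NC and 6376, 5117 and 6524 CPM in CO (1.65-fold, log2 ratio 0.73, interval 0.71 to 0.74), where 13.4% of genes reached 1.5-fold higher.

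Marker sums of both classes also differed between the groups. The astrocyte markers in astrocyte-like cells were at 15290 to 15550 unscaled CPM in NC and 17250 to 18900 in CO, and the mural markers there at 235 to 270 in NC and 116 to 140 in CO. In choroid plexus-like cells the choroid plexus markers were at 8401 to 9043 in NC and 6688 to 7497 in CO, the fibroblast markers at 259 to 323 and 144 to 160, and the ependymal markers at 496 to 564 and 385 to 428. Their part in the *Fth1* results was not tested. Ependymal markers were found in astrocyte-like cells at 19.3 to 50.2 unscaled CPM in NC and 26.5 to 85.1 in CO, which overlap, with *Tmem212* of the 6 markers at 0. The ependymal-like cells, 56 in NC and 45 in CO and too few to compare, carried *Fth1* at 13630 to 34430 unscaled CPM in NC and 16560 to 36200 in CO. In astrocyte-like cells with no UMI of an ependymal or choroid plexus marker (456 NC and 633 CO cells, a selection made after the data were seen), the *Fth1* log2 ratio was 0.98. With Leiden clusters it was 0.66. Choroid plexus-like cells of NC had a median of 38350 UMIs and those of CO 11842. With each cell thinned to 2000 UMIs, the *Fth1* ratio in that class was 0.86. Scaling by total counts alone shifted the median log2 ratio of all genes to -0.15 there, and the *Fth1* ratio was then 0.58.

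In the remaining classes the *Fth1* differences were small. In oligodendrocyte-like cells, the highest of the classes compared, *Fth1* was at 7137, 7658 and 7657 CPM in NC and 9357, 9078 and 8699 CPM in CO (1.21-fold, log2 ratio 0.28). Endothelial-like cells had 2990, 3342 and 3283 CPM in NC and 3795, 3853 and 4077 CPM in CO (log2 ratio 0.29). Mural-like cells had a log2 ratio of 0.31, and neuronal-like cells, the lowest of the classes compared, 0.22. In microglia-like cells the levels were 6047, 6045 and 6237 CPM in NC and 6581, 6440 and 6455 CPM in CO, a log2 ratio of 0.09. After thinning, 96.4% of microglia-like cells of either group had an *Fth1* UMI, and the median was 11 UMIs per cell in NC and 10 in CO. The genes most like *Fth1* across classes and groups were *Degs1*, *Cd82* and *Cd164*, with Pearson r of 0.88, 0.84 and 0.83 over the 16 points.

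*Ftl1*, the ferritin light chain that helps nucleate the iron core, did not follow the heavy chain. It was lower in CO without overlap of libraries in 5 classes. In these classes 12.6% (neuronal-like) to 23.4% (microglia-like) of all genes had all CO libraries below all NC libraries. In microglia-like cells, its highest among the classes compared, it was at 450, 457 and 441 CPM in NC and 403, 402 and 414 CPM in CO (log2 ratio -0.14, interval -0.18 to -0.11). In oligodendrocyte-like cells it was at 191, 189 and 193 CPM in NC and 169, 174 and 146 CPM in CO (-0.23, interval -0.29 to -0.16). Choroid plexus-like cells had a log2 ratio of -0.32 and neuronal-like cells -0.17. In astrocyte-like cells, on 160 NC and 132 CO UMIs, the levels were 61.0, 79.7 and 67.1 CPM in NC and 35.5, 36.7 and 52.6 CPM in CO, 1.64-fold lower (log2 ratio -0.71, interval -1.05 to -0.37). In that class 14.2% of genes were 1.5-fold or more lower, and with Leiden clusters the sign turned, to 0.24. Both ferritin genes have copies elsewhere in the genome, and RefSeq lists a second rat gene under the synonym *Ftl1*. No source used here says how reads shared by such copies were counted, so these counts are uncertain to that extent.

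**Figure D4:**
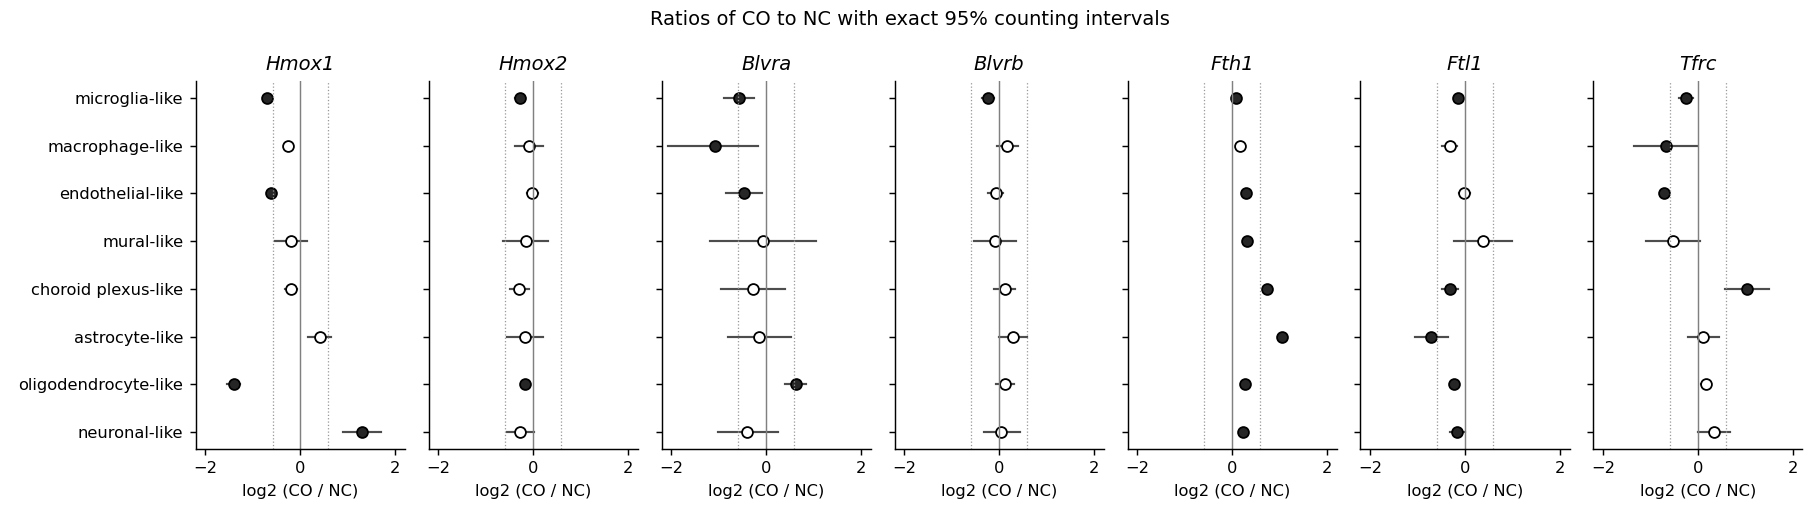
Log2 ratio of CO to NC for the 7 genes in 8 classes, from group sums; bars are exact 95% intervals of the counts, dotted lines mark 1.5-fold, and filled points are those for which the 3 CO and 3 NC libraries did not overlap. Fth1 lies to the right of 0 in every class, while Hmox1 in microglia-like and Tfrc in endothelial-like cells lie left of the 1.5-fold line.

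*Tfrc*, the transferrin receptor that carries iron-loaded transferrin into cells, marked the endothelial-like class, which is where the brain takes up iron from blood. There it was at 550, 577 and 544 CPM in NC and at 332, 341 and 341 CPM in CO. The groups lay far apart and the libraries within each were close together. CO was 1.65-fold lower (log2 ratio -0.72, interval -0.77 to -0.67), on 8703 NC and 4440 CO UMIs. For all genes of the class, 24.7% had all CO libraries below all NC libraries. In cells thinned to 2000 UMIs, 52.6% of NC cells (50.6 to 54.5%) and 32.7% of CO cells (30.6 to 34.9%) had a *Tfrc* UMI, against 3.46% and 2.97% of microglia-like cells. The endothelial markers were at 16230 to 16780 unscaled CPM in NC and 14960 to 15500 in CO, with 5 of the 8 higher in CO and 3 lower. *Slco1a4* was at 2169 CPM in NC and 1481 in CO and *Emcn* at 710 and 484, while *Cldn5* was at 6722 and 7100 and *Esam* at 666 and 1098. Their part in the result was not tested. Over the 18 other ways of processing, the log2 ratio lay between -0.87 and -0.69.

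In the other classes compared *Tfrc* was much lower. Oligodendrocyte-like cells came next at 67.4 CPM in NC and 75.4 in CO, with overlapping libraries. In microglia-like cells it was at 24.6, 24.3 and 23.0 CPM in NC and 19.2, 20.4 and 20.9 CPM in CO (log2 ratio -0.25, interval -0.39 to -0.10). In macrophage-like cells 56 NC and 31 CO UMIs gave -0.67 (interval -1.36 to -0.01), which was -0.50 without NC library 3 and -0.57 without CO library 3, both inside 1.5-fold. Choroid plexus-like cells went the other way at a very low level, with 5.06, 4.62 and 7.11 CPM in NC and 16.1, 9.49 and 9.29 CPM in CO (2.03-fold higher, log2 ratio 1.03, interval 0.56 to 1.495), on 67 and 98 UMIs. The genes most like *Tfrc* in profile were *Slc39a10*, a metal transporter, *Hmcn1* and *Jcad*, with Pearson r of 0.93, 0.93 and 0.89 over the 16 points, all highest in endothelial-like cells.

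*Tfrc* is a textbook target of the hypoxia-inducible factors, whose response elements often hold the core ACGTG. The stretch of 250 bases before its RefSeq start (GRCr8, chr11:81690319-81690568, minus strand) is therefore shown. That of *Hmox2* (chr10:11337613-11337862, minus strand) is shown beside it, because it also holds the core. Capitals mark the core on either strand (CACGT is its reverse complement) and, in *Hmox2*, a match to the antioxidant element core TGACNNNGC, read on the opposite strand.
Tfrc: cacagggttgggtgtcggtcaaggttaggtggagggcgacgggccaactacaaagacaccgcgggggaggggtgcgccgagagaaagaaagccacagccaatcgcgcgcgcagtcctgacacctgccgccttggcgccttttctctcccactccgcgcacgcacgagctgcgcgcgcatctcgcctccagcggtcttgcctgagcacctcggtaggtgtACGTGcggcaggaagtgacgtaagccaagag
Hmox2: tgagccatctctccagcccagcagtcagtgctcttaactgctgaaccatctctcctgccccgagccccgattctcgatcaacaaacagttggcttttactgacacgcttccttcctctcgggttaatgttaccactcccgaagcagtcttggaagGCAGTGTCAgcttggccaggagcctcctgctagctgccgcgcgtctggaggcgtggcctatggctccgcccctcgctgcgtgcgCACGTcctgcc
The *Tfrc* match lies 31 to 27 bases before the start. Of 33469 RefSeq windows of this length, 16.6% hold the ACGTG core on either strand and 10.1% the antioxidant core. Windows of 4 of the 7 genes were matched by symbol. *Blvra* holds the antioxidant core and not the ACGTG core, and the *Blvrb* window and the second *Hmox2* window hold neither. Only ACGTG was searched for the hypoxia core, and other forms of that core were not. A match describes the letters and is not a bound site.

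Counted over the set, 1 of the 7 genes was higher and 6 were lower in CO microglia-like cells. For 1 gene (*Fth1*) all 3 CO libraries were above all 3 NC libraries and for 6 they were below, where 23% of all genes in the class were above and 23.4% below. The differences were small: the median log2 ratio of the set was -0.25, against 0.00 over all genes. In microglia-like cells no gene of the set was 1.5-fold higher, a size that 8.27% of genes there reached.

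The other classes held 0 to 2 genes of the set at 1.5-fold in either direction. In macrophage-like cells 0 genes had all CO libraries above the NC libraries (14.3% of all genes did) and 2 had them below (*Blvra* and *Tfrc*, 14.5%). Oligodendrocyte-like cells had 1 gene 1.5-fold lower (*Hmox1*, 9.58% of all genes), 2 with all CO libraries above (*Blvra* and *Fth1*, 17.9%) and 3 below (18.5%). Astrocyte-like cells had 1 above and 1 below (*Ftl1*, 13.5%). Endothelial-like cells had 1 above (*Fth1*, 23.9%) and 3 below (*Hmox1*, *Blvra* and *Tfrc*, 24.7%).

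Mural-like cells had none at 1.5-fold, which 16.4% of genes reached upward and 15.8% downward. There 1 gene (*Fth1*) had all CO libraries above (13.1%) and 0 below (12.6%). Choroid plexus-like cells had none 1.5-fold lower (15.5% of all genes), 2 with all CO libraries above (*Fth1* and *Tfrc*, 18.6%) and 1 below (*Ftl1*, 18.9%). Neuronal-like cells had 1 gene 1.5-fold higher (*Hmox1*, 15.6%) and none lower (8.78%), with 2 above (16.1%) and 1 below (*Ftl1*, 12.6%).

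Over all classes, 5 of the 56 pairs of gene and class were 1.5-fold or more higher and 7 lower, 12 in all, which is 21.4%. Of all 81204 pairs, 12.8% were higher and 12.7% lower, 25.5% in all. The share of the set past 1.5-fold was thus not above that of genes at large. Genes at large include genes of low counts, and the 1.5-fold share among genes of like counts was not tested. Of the 56 pairs of the set, 10 had all CO libraries above all NC libraries and 17 had them below. Among all genes, the share above ran from 13.1% (mural-like) to 23.9% (endothelial-like) by class. The share below ran from 12.6% (mural-like and neuronal-like) to 24.7% (endothelial-like). The libraries were also treated as replicates, so that the p-values measure the spread between libraries of what may be 1 pool. Here edgeR's quasi-likelihood test with Benjamini-Hochberg adjustment called 18 of the 56 pairs at 0.05, a larger share than the 19.1% of all pairs. DESeq2 called 16 (15.3% of all pairs), and edgeR with the replicate number as a block called 16 (18.4%), again larger shares than of all pairs. Whether genes of like counts are called as often was not tested.

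Around these genes stand 55 measured genes of heme synthesis, heme transport, iron transport and iron sensing. Of 346 pairs of these genes with a class, 50 were 1.5-fold or more higher in CO and 41 lower, 26.3% in all, close to the 25.5% of all genes. By list, heme synthesis had 9 pairs higher and 12 lower of 64, heme and hemoglobin uptake and transport 7 and 6 of 50, regulators and the electron donor of heme oxygenase 8 and 4 of 47, iron transport and reduction 16 and 8 of 66, iron sensing and ferritin turnover 5 and 2 of 40, and mitochondrial iron use 5 and 9 of 79.

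In endothelial-like cells 8 of 48 pathway genes were 1.5-fold or more higher and 7 lower, where 13.2% and 14% of all genes were, and their median log2 ratio was 0.02. *Lcn2*, *Abcg2* and *Aco1* each had 1 of the 2 largest ratios in their direction among pathway genes with a mean of at least 16 CPM. *Lcn2*, which encodes lipocalin 2, a protein that binds iron-loaded siderophores, was at 36.6, 39.1 and 41.3 CPM in NC and 158, 180 and 181 CPM in CO (4.42-fold higher, log2 ratio 2.14, interval 2.01 to 2.28). *Abcg2*, an efflux pump that also exports porphyrins and heme, was at 534, 540 and 551 CPM in NC and 254, 265 and 279 CPM in CO (2.04-fold lower, log2 ratio -1.03, interval -1.09 to -0.97). *Aco1*, whose product without its iron-sulfur cluster binds the RNAs of *Tfrc* and the ferritins, was at 34.7, 18.8 and 25.1 CPM in NC and 12.1, 11.9 and 11.6 CPM in CO (log2 ratio -1.15, interval -1.43 to -0.88). The partner sensor *Ireb2* was at 30.2 and 31.4 CPM (0.06).

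Heme synthesis in endothelial-like cells was split. *Alas1*, the first and rate-limiting enzyme, was at 137, 143 and 123 CPM in NC and 262, 264 and 277 CPM in CO (log2 ratio 1.00, interval 0.92 to 1.08). Of the 9 genes of the list, 2 were 1.5-fold or more higher (*Alas1* and *Uros*) and 4 lower. Among the lower ones, named after their values were seen, were *Alad* (-0.80), *Urod* (-0.73) and *Ppox* (-1.63), enzymes of later steps. In microglia-like cells *Alas1* went the other way, at 47.1, 55.2 and 51.8 CPM in NC and 31.2, 29.7 and 33.7 CPM in CO (log2 ratio -0.70, interval -0.81 to -0.59). *Bach1*, the repressor of *Hmox1*, was at 16.4 CPM in NC and 12.7 in CO in microglia-like cells (-0.37), and *Nfe2l2*, its activator, at 317 and 333 CPM (0.07).

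**Figure D5:**
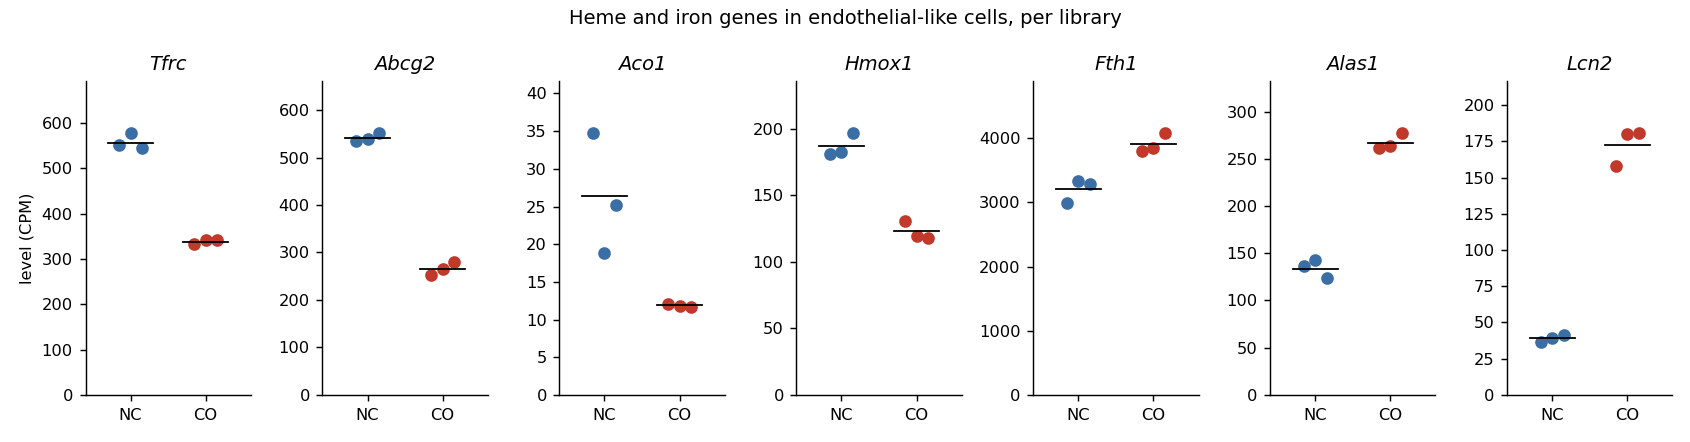
Level in CPM of 7 heme and iron genes in endothelial-like cells, with 1 point per library and a bar at the level of the group sum; each vertical axis starts at 0. Tfrc, Abcg2, Aco1 and Hmox1 are lower in all 3 CO libraries than in all 3 NC libraries, and Fth1, Alas1 and Lcn2 are higher.

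In macrophage-like cells 9 of 41 pathway genes were 1.5-fold or more higher and 7 lower, where 15.5% and 17.1% of all genes were. Each of the lists for heme transport and for iron transport had 2 genes higher and 2 lower. *Heph*, a ferroxidase of iron export, was at 107, 125 and 117 CPM in NC and 67.9, 64.5 and 53.3 CPM in CO (1.87-fold lower, log2 ratio -0.90, interval -1.24 to -0.58). *Lrp1*, the receptor for heme bound to hemopexin, had a log2 ratio of -1.07 (81 and 34 UMIs), and *Flvcr1*, a heme exporter, 1.09 (40 and 75 UMIs), both without overlap of libraries. *Slc39a8* (-0.80) and *Cisd1* (-0.64) were lower and *Bach1* (0.77) and *Cisd2* (0.61) higher, without overlap. For *Fech*, *Flvcr2*, *Slc11a2* and *Slc25a28* the libraries overlapped. *Ncoa4*, the receptor that sends ferritin to lysosomes, was at 498 and 704 CPM in macrophage-like cells (0.50) and at 155 and 118 CPM in microglia-like cells (-0.39). In microglia-like cells, *Slc25a37*, the mitochondrial iron importer, was at 24.1, 23.7 and 20.4 CPM in NC and 13.3, 14.1 and 13.03 CPM in CO (log2 ratio -0.75, interval -0.92 to -0.59).

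*Lcn2* and *Heph* were higher in CO astrocyte-like cells too. *Lcn2* had 2 UMIs in NC and 111 in CO, at 0, 0 and 2.53 CPM in NC and 70.9, 23.3 and 18.7 CPM in CO (log2 ratio 5.36, interval 3.48 to 8.43). *Heph* was at 37.1, 64.0 and 63.3 CPM in NC and 127, 94.9 and 117 CPM in CO (log2 ratio 1.05, interval 0.75 to 1.36), and *Cpox*, an enzyme of heme synthesis, was lower (-1.06, interval -1.63 to -0.50). Choroid plexus-like cells had higher *Lcn2* (33.0, 28.0 and 35.1 against 57.0, 47.0 and 72.8 CPM, log2 ratio 0.92) and *Mafk* (0.77) and lower *Aco1* (-0.71). Mural-like cells had higher *Ncoa4* (0.93, interval 0.52 to 1.34) and lower *Keap1* (-1.19, interval -1.88 to -0.52) and *Nfs1* (-2.46, on 59 and 12 UMIs). In neuronal-like cells *Nfe2l2* (-0.88) and *Por* (-0.62), the electron donor of heme oxygenase, were lower and *Slc25a28* (0.92) and *Ppox* (0.64) higher. In oligodendrocyte-like cells the pathway genes named by the same rule had small ratios, among them *Fech* (0.57), *Ncoa4* (-0.27) and *Mafg* (-0.25).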

How the data were processed

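The authors deposited raw UMI counts per gene and barcode for 6 droplet libraries (10x Genomics), not normalized, mapped with Cell Ranger to Rnor_6.0 per the submitters' processing notes, of a version that no source used here states. Barcodes were kept from 500 UMIs and 200 genes upward. A cell joined a class when at least 3 of its markers were detected and every other list reached at most 0.5 times that number, hemoglobin markers not counted. Of kept cells, 10.6% (NC) and 10.2% (CO) held mixed markers and 15.2% and 15.5% too few, and were left out. This stood in for a doublet caller. The gate was set after the data were seen, and 2915 of 27287 cells had exactly 3 markers. Classes needed 30 cells in every library.

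Counts were summed per class and library and scaled by TMM (edgeR 4.0.16). Ratios are CO over NC from group sums with exact binomial intervals (scipy 1.17.1), for genes of at least 30 counts over both groups. Shares carry exact Clopper-Pearson intervals. In a simulation of the microglia-like comparison, 95.7% of the intervals of 11373 genes without a change covered 0. That share speaks for counting error only. It cannot show how often the intervals hold where cells or libraries differ by more than counting error. Of all 15 library pairs, 1 barcode was shared. Each group was taken as 1 sample, since its libraries differ, averaged over genes, by about as much as parts of 1 pool of cells. The members, the gene lists and the tests were chosen with earlier results of these data known.

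The named genes are the members in every class; of the pathway lists, those 1.5-fold or more apart in microglia-like or macrophage-like cells and the 2 largest ratios each way in other classes, at a mean of at least 16 CPM; and the 3 genes most like *Hmox1*, *Tfrc* and *Fth1* among genes with a maximum of at least 50 CPM. *Ncoa4*, *Bach1*, *Nfe2l2* and *Ireb2* where outside that rule, and *Cd163*, were named after their values were seen. *Slc40a1*, *Pcbp1* and *Ftmt* were not analysed here, and some pathway genes that the rule names are not reported here. Alternatives were other scalings and filters, other cell minimums, thinning, Leiden clusters (leidenalg 0.10.2, scanpy 1.11.5), a stricter gate, single libraries left out, and edgeR and DESeq2 1.42.0 with libraries as replicates. Promoter sequences are RefSeq's for GRCr8.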

Additional observations from a re-analysis of the deposited data

Results flagged for a closer look

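In 3 genes the libraries separated in opposite directions in a pair of classes. The difference between classes was not tested, and the pair with the largest gap was taken after the values were seen. *Hmox1* was higher in neuronal-like and lower in oligodendrocyte-like cells of CO, with log2 ratios 2.69 apart, and how much of either level is RNA from other cells was not tested. *Tfrc* was higher in choroid plexus-like and lower in endothelial-like cells, 1.74 apart. *Blvra* was higher in oligodendrocyte-like and lower in macrophage-like cells, 1.71 apart, with 36 and 15 UMIs behind the macrophage-like value.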

How the results depend on the processing

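In microglia-like cells 1 member reached 1.5-fold, and 2 did with total count scaling, with cells thinned to 2000 UMIs and, in the alternatives added after the data were seen, without ependymal or choroid plexus markers and without macrophage markers. Leaving out 1 library gave 1 to 2. The second gene was *Blvra* each time, also without NC library 1 or 3 or CO library 1 or 3. Over the other classes 11 pairs reached it, and 10 to 13 with a library left out. Pathway pairs numbered 91, 132 with no filter on low counts, 67 with thinned cells, and 81 to 92 with a library left out. *Hmox1* in neuronal-like cells was inside 1.5-fold with Leiden clusters (0.35), *Fth1* in choroid plexus-like cells with total count scaling (0.58) and *Tfrc* in macrophage-like cells without ependymal or choroid plexus markers (-0.44). The share of microglia-like cells with *Hmox1* was 66.0% in NC and 54.8% in CO, 76.2% and 70.9% unthinned, and 44.4% and 31.6% at 3 UMIs or more. Of 1008 alternative values of the 56 member ratios, 953 stayed within the spread between libraries, 54 moved further and 1 was counted as reversed. Only ratios of 1.5-fold or more could be counted as reversed, and changes of sign in smaller ratios are among the 953 and 54. The reversed value was *Ftl1* in astrocyte-like cells, at 0.24 with Leiden clusters. The cause was not tested. Total count scaling moved the median of all genes to -0.11 in endothelial-like and -0.15 in choroid plexus-like cells, and the share of 1.5-fold calls that were higher from 48.6% to 38.0% and from 46.4% to 31.9%. With libraries as replicates, edgeR called 18 of 56 pairs at an adjusted p under 0.05, where it called 19.1% of all pairs. DESeq2 called 16 (15.3% of all pairs) and edgeR with the replicate block 16 (18.4%). The numbers do not pair the libraries: same-numbered deviations correlated between -0.148 and 0.129. Those p-values measure the spread between libraries, which may be technical. Depth limits *Blvra* most, with 15 to 444 UMIs per class and group.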

Other observations

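In NC, *Blvra* was higher in barcodes left out of every class for lack of markers than in any of the 8 compared classes, and in CO it was not. These 3079 NC and 2758 CO barcodes, with median depths of 1044 and 1266.5 UMIs, held 315 and 83 *Blvra* UMIs. In unscaled CPM, *Blvra* was at 53.9, 46.6 and 48.2 in the NC libraries and at 10.6, 12.3 and 11.6 in the CO libraries, without overlap. Which cells these barcodes come from was not tested.

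Cells named only by hemoglobin markers, 177 in NC and 72 in CO, carried *Fth1* at 9415, 8511 and 10230 unscaled CPM in NC and 5136, 5965 and 6037 in CO, and *Hmox1* at 2012, 2117 and 795 in NC and 552, 1293 and 492 in CO. The *Hmox1* libraries overlapped and the *Fth1* libraries did not. *Blvra* was at 71.9, 75.6 and 95.4 unscaled CPM in NC and 0, 32.3 and 0 in CO, on 18 and 2 UMIs. These cells had median depths of 899 UMIs in NC and 1100 in CO. They held the summed microglia markers at 599.9 and 599.5 unscaled CPM. How much of any of these genes in them is RNA from other cells was not tested.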
